A study of Rattus norvegicus with 11 samples.

Results

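Globin and erythroid transcripts were measured in the ileum of rats with severe acute pancreatitis (SAP) by RNA sequencing. The 9 genes were taken by symbol from the 24481 genes with read counts, and all 9 were found. They are the alpha globin genes Hba-a1, Hba-a2 and Hba-a3, the beta globin genes Hbb, Hbb-b1 and Hbb-bs, and the erythroid genes Alas2, Ahsp and Slc4a1. The 11 libraries were labelled as 3 of the control group, 4 of the SAP group and 4 of the JZL184 group, all from SD rats aged 6 to 8 weeks. SAP was induced by 3% sodium taurocholate run backwards into the pancreatic duct. Rats were assigned to groups 24 h after surgery, and the ileum was taken 24 h after an intraperitoneal injection. The JZL184 group carried SAP and received 10 mg/kg JZL184, a selective inhibitor of monoacylglycerol lipase (MAGL), the enzyme that breaks down the endocannabinoid 2-arachidonoylglycerol. The control and SAP groups received vehicle. The sources used here do not say plainly whether the control rats had surgery, and the treatment labels name a control plasmid for the control group.

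Hemoglobin is a tetramer of alpha and beta globin chains, each of which holds a heme. It is made in erythroblasts of the bone marrow, and reticulocytes still carry globin mRNA after they enter the blood. Blood held by a tissue brings this mRNA into its libraries. In bulk samples, fewer cells of a type and less RNA per cell cannot be told apart.

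Several facts of the libraries touch the values that follow. Between 26341299 and 33847135 reads per library lay on genes. The counts of control libraries 1 and 2 agreed almost within counting noise, with a chi-square per gene of 2.81 against at least 77.48 in the other pairs. They were counted as 1 sample, so the control group had n = 2. SAP libraries 1 and 2 stood apart in the FPKM (reads normalized for gene length and library size) summed over all genes, which was at most 494474 in them and at least 596324 in the other libraries. SAP library 2 held 20 reads of Y-linked genes and 7826 of Xist, against at least 1222 and at most 56 elsewhere, while the methods speak of male rats. Fold changes that involve the SAP group are also given without SAP libraries 1 and 2 for the erythroid genes and for several other genes chosen after their values were seen. Such fits keep only SAP libraries 3 and 4, so the SAP group then has n = 2. The labels name intestinal epithelial cells, but markers of smooth muscle and leukocytes were present as well, as in whole tissue. Acta2, the smooth muscle actin, had 83.0 to 267 FPKM and Ptprc, the leukocyte marker CD45, had 2.55 to 32.0 FPKM.

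The sequences just upstream of the genes are shown as a description, and their part in the measured values was not tested. A RefSeq promoter on the GRCr8 build was found for 7 of the 9 genes. The 150 bases before the annotated start are given 5′ to 3′ on the strand of the gene. Capitals mark GATAA, one form of the sites for GATA factors, CACCC, the core of sites for KLF factors, CCAAT, and TATAAA. Each was searched on both strands, and no matches overlapped. Hba-a1 lies at chr10:15842581-15842730, Hba-a2 at chr10:15829139-15829288 and Hba-a3 at chr10:15816944-15817093, all on the minus strand. Hbb lies at chr1:167663722-167663871, Hbb-b1 at chr1:167643521-167643670 and Hbb-bs at chr1:167631631-167631780, also on the minus strand. Alas2 lies at chrX:22895300-22895449 on the plus strand.
Hba-a1: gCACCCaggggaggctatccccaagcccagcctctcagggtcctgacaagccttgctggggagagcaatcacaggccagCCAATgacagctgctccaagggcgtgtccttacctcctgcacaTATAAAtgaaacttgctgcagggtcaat
Hba-a2: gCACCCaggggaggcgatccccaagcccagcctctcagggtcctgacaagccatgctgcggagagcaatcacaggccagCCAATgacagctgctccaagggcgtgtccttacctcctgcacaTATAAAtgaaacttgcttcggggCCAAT
Hba-a3: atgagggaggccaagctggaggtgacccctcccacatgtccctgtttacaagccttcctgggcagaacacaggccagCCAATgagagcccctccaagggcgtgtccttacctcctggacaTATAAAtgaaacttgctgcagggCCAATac
Hbb: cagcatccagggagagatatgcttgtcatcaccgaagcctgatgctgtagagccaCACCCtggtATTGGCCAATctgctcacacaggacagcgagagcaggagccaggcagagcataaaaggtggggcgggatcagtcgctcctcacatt
Hbb-b1: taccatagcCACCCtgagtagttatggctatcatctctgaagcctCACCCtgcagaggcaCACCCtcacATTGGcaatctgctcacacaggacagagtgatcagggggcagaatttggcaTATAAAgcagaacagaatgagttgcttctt
Hbb-bs: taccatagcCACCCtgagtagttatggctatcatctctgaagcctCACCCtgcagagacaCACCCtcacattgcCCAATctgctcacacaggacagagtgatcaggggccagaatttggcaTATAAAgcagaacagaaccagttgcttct
Alas2: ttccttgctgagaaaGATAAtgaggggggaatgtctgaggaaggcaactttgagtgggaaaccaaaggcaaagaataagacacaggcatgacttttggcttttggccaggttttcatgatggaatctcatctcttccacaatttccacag

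CCAAT was found upstream of all 6 globin genes and TATAAA upstream of 5, with Hbb as the exception. CACCC was found in 5 of them, with 3 matches in Hbb-b1 and in Hbb-bs, and it was missing from Hba-a3. GATAA was found only upstream of Alas2, and other forms of GATA sites were not searched. Among 33469 promoters of the same length, 23.5% held CCAAT, 35.2% held CACCC, 14.2% held GATAA and 8.0% held TATAAA. A match is a match of letters and not a binding site. The upstream sequences of Hba-a1 and Hba-a2 were identical at 96.0% of aligned positions and those of Hbb-b1 and Hbb-bs at 95.4%. Hba-a3 shared 74.8% with Hba-a1, and Hbb shared 68.1% with Hbb-b1. Only uniquely aligned reads were counted, so the division of reads among related genes of one class may be less certain than the level of the class. The identity of the transcripts themselves was not measured here.

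Globin mRNA was a small part of every library. The 6 globin genes together took between 0.00352% and 0.0465% of the reads on genes. In the control group, they summed to 81.5, 84.0 and 212 RPM (reads per 1000000 reads on genes). In the SAP group, the sums were 35.2, 69.9, 233 and 184 RPM, and in the JZL184 group they were 166, 161, 465 and 351. The lowest sums were those of SAP libraries 1 and 2 and of control libraries 1 and 2, and the highest were those of JZL184 libraries 3 and 4. The mean was 148 ± 91.6 (SD, n = 2) in the control group, 131 ± 93.3 (SD, n = 4) in the SAP group and 286 ± 149 (SD, n = 4) in the JZL184 group. All 3 groups overlapped.

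**Figure D1:**
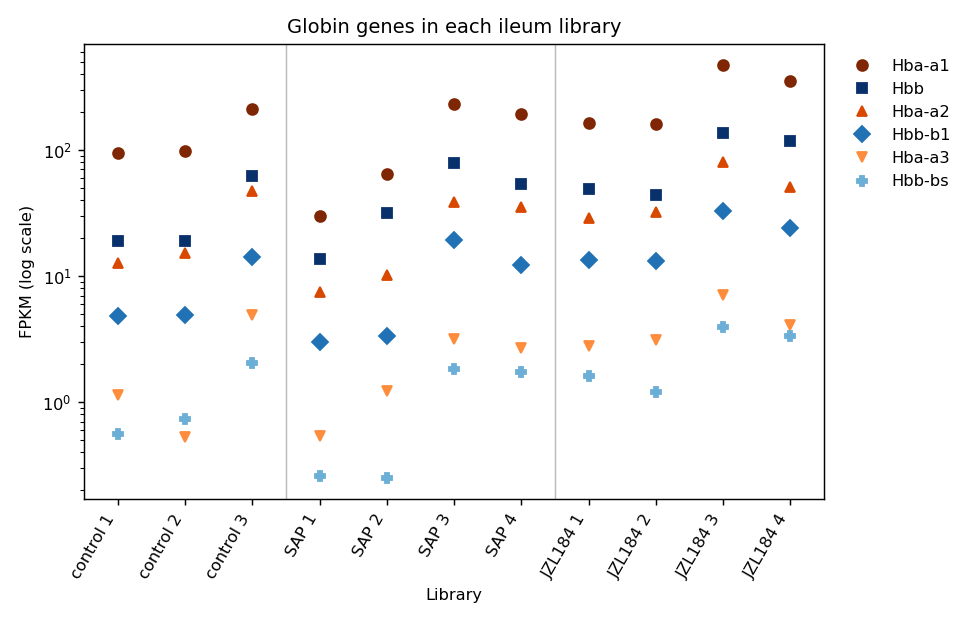
FPKM (log scale) of the 6 globin genes in each of the 11 libraries, with 1 symbol per gene and no averaging. Hba-a1 had the highest value in every library, from 30.1 FPKM in SAP library 1 to 474 FPKM in JZL184 library 3.

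The alpha globin genes encode the alpha chain. Hba-a1 was the most abundant globin transcript, with 95.1, 97.5 and 212 FPKM in the control group, 30.1, 64.1, 231 and 191 FPKM in the SAP group, and 162, 160, 474 and 352 FPKM in the JZL184 group. SAP libraries 1 and 2 were below all other libraries, and JZL184 libraries 3 and 4 were above them. Hba-a2 had 12.8, 15.2 and 47.3 FPKM in the control group, 7.52, 10.3, 38.6 and 35.3 FPKM in the SAP group, and 28.8, 32.3, 80.9 and 50.9 FPKM in the JZL184 group. Control library 3 exceeded all 4 SAP libraries, while control libraries 1 and 2 did not. Hba-a3 was far lower, with 1.14, 0.53 and 4.92 FPKM in the control group, 0.54, 1.22, 3.15 and 2.67 FPKM in the SAP group, and 2.77, 3.12, 7.13 and 4.12 FPKM in the JZL184 group. For Hba-a3, control library 3 ranked second of all libraries, behind JZL184 library 3. Hba-a1 made up 78.9% to 87.2% of the alpha globin FPKM in a library.

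The beta globin genes encode the partner chain. Hbb was the main one, with 19.1, 18.9 and 61.6 FPKM in the control group, 13.6, 31.7, 79.2 and 54.0 FPKM in the SAP group, and 48.6, 43.6, 136 and 118 FPKM in the JZL184 group. SAP library 3 thus lay above JZL184 libraries 1 and 2. Hbb-b1 had 4.84, 4.92 and 14.1 FPKM in the control group, 2.99, 3.34, 19.2 and 12.4 FPKM in the SAP group, and 13.3, 13.2, 32.9 and 24.1 FPKM in the JZL184 group. Only SAP library 3 and control library 3 reached into the range of the JZL184 group. Hbb-bs had 0.56, 0.74 and 2.04 FPKM in the control group, 0.26, 0.25, 1.83 and 1.73 FPKM in the SAP group, and 1.61, 1.20, 3.98 and 3.38 FPKM in the JZL184 group. It was the least abundant beta globin in all 11 libraries and rested on 334 reads over all of them. Hbb made up 75.2% to 89.8% of the beta globin FPKM, and the highest share was in SAP library 2.

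Alpha and beta globin did not stand in one ratio. The summed alpha FPKM was 4.45, 4.61 and 3.41 times the summed beta FPKM in the control group. The ratio was 2.27, 2.14, 2.73 and 3.37 in the SAP group and 3.05, 3.37, 3.25 and 2.80 in the JZL184 group. All control libraries lay above all libraries of the other groups, by a narrow margin for control library 3. The mean ratio was 3.97 ± 0.80 (SD, n = 2) in the control group, 2.63 ± 0.55 (SD, n = 4) in the SAP group and 3.12 ± 0.25 (SD, n = 4) in the JZL184 group. No test was made of these sums, since the genes were chosen with earlier results known.

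**Figure D2:**
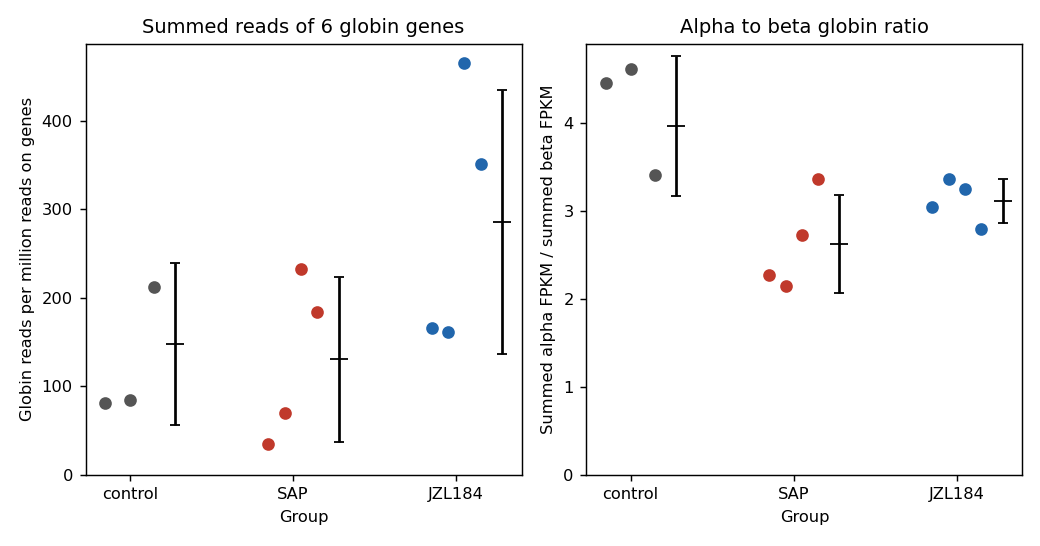
Left, globin RPM (reads per 1000000 reads on genes, summed over the 6 genes), and right, summed alpha FPKM over summed beta FPKM, with 1 point per library and the mean ± SD beside it (n = 2 for control, libraries 1 and 2 being 1 sample, and n = 4 for SAP and JZL184). The JZL184 mean of the left panel is 286 ± 149, and the ratio of control libraries on the right stays above 3.37, the highest value elsewhere.

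The other 3 genes had low FPKM, and Ahsp and Slc4a1 were near the lower end of detection. Alas2 had 739 reads over all libraries, more than Hba-a3 with 532 or Hbb-bs with 334. Alas2 encodes the erythroid form of the first enzyme of heme synthesis. It had 0.33, 0.13 and 0.68 FPKM in the control group, 0.47, 1.47, 1.08 and 0.49 FPKM in the SAP group, and 1.35, 0.23, 1.88 and 2.76 FPKM in the JZL184 group. The order of libraries was not that of the globins. SAP library 2, with little globin, had the highest Alas2 of its group, and JZL184 library 2 had the lowest of its own. Per 1000 FPKM of globin, Alas2 ranged from 0.909 in JZL184 library 2 to 13.3 in SAP library 2.

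Ahsp encodes the chaperone that binds free alpha globin. It had 5, 3 and 10 reads in the control group, 6, 5, 7 and 5 reads in the SAP group, and 6, 5, 21 and 3 reads in the JZL184 group. JZL184 library 3, which had the most globin, also had the most Ahsp. Slc4a1 encodes band 3, the anion exchanger of the erythrocyte membrane. It had 5, 4 and 12 reads in the control group, 9, 15, 7 and 4 reads in the SAP group, and 1, 4, 14 and 12 reads in the JZL184 group. With 76 reads of Ahsp and 87 of Slc4a1 over all libraries, counting error was large beside these values.

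**Figure D3:**
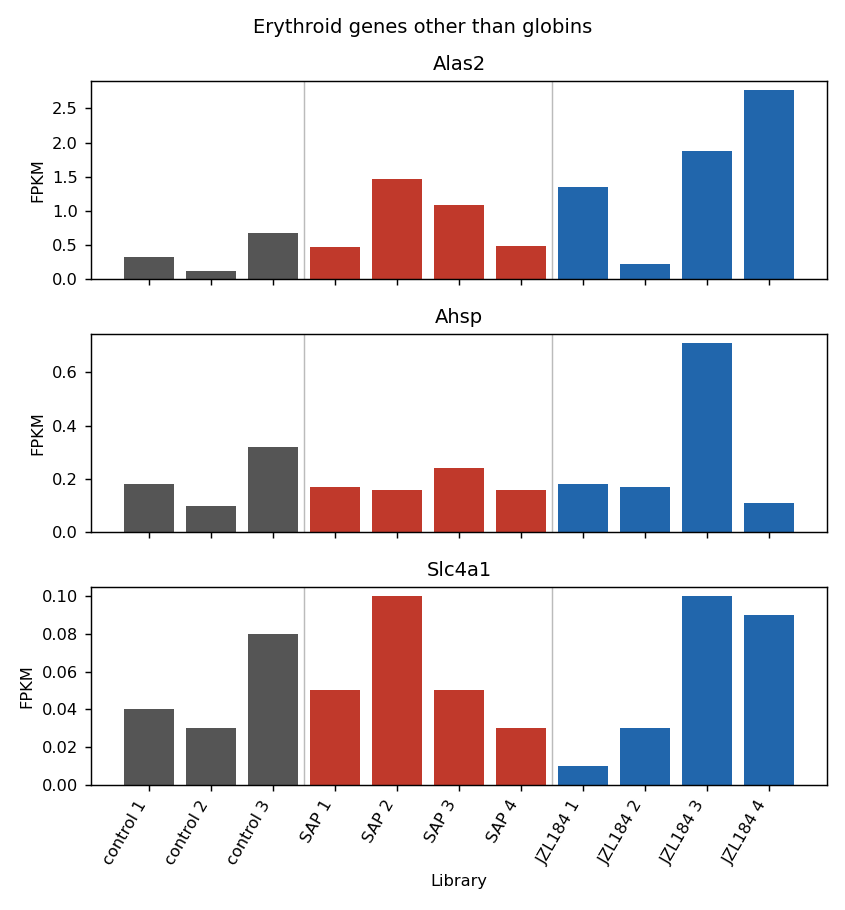
FPKM of Alas2, Ahsp and Slc4a1 in each of the 11 libraries, with each axis starting at 0 and bars coloured by group (grey control, red SAP, blue JZL184). Alas2 reaches 2.76 FPKM in JZL184 library 4, and Ahsp and Slc4a1 stay at or below 0.71 FPKM and 0.10 FPKM.

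The comparison of the SAP group with the control group asks whether pancreatitis moved these genes in the ileum. None of the 8 genes that passed the filter on low counts was a DEG in edgeR's quasi-likelihood test (a DEG needed an adjusted p under 0.05 and more than 2 times or less than 0.5 times the expression). Neither was any other gene, since 0.0% of 16029 genes were called, although 1457 had an unadjusted p below 0.05, none of them among the 8. DESeq2 called 0.893% of 23299 genes and none of the 9. In simulated data with the dispersion of these samples, edgeR recovered 0% of true 4-fold changes, so a gene not called may still have changed. The log2 fold change of Hbb was 0.05 (SE 0.73, edgeR adjusted p = 0.974) and that of Hba-a1 was −0.35 (SE 0.79, edgeR adjusted p = 0.822). Hba-a3 had −0.67 and Alas2 had 0.80 (SE 0.64, edgeR adjusted p = 0.540). The median over the 8 genes was −0.24, beside 0.06 over all genes tested. Normalised counts did not overlap between the groups for 23.2% of all genes and for 0 of the 8.

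The sign of the globin values changed when single libraries were left out, while Alas2 stayed positive under every alternative that was run. Without SAP libraries 1 and 2, all 7 genes that were tested had positive values, with 0.68 for Hbb, 0.40 for Hba-a1 and 0.76 for Alas2. Without SAP library 2 alone, Hbb-b1 turned from −0.09 to 0.21, while Hba-a1 stayed negative at −0.10. Without control library 3, all 8 genes tested were positive, with 1.03 for Hbb and 0.24 for Hba-a1, since the single control sample left then was the low pair. Two-sided exact permutation tests of FPKM (n = 4 against n = 2) gave p between 0.4 and 1.0 for the 9 genes, and this design cannot go below 0.06667.

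The comparison of the JZL184 group with the SAP group asks whether the MAGL inhibitor moved the genes in rats with SAP. All 7 genes that passed the filter had positive values, and none was a DEG. Here too edgeR called 0.0% of 15308 genes, with 3267 at an unadjusted p below 0.05 and none of the 7 among them. DESeq2 called 5.32% of 24116 genes and none of the 9. Its unadjusted p was below 0.05 for 4 of the 9 and for 4341 of the 24116. The log2 fold change was 1.23 for Hba-a1 (SE 0.64, edgeR adjusted p = 0.288), 1.06 for Hbb (SE 0.57, edgeR adjusted p = 0.299) and 1.28 for Hba-a3 (SE 0.59, edgeR adjusted p = 0.242). For Alas2 it was 0.98 (SE 0.64, edgeR adjusted p = 0.378). The median over the 7 genes was 1.23, beside −0.05 over all genes tested. The groups overlapped for all 7, where 11.8% of all genes did not overlap.

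Leaving out SAP libraries 1 and 2 took the values of the globins to between 0.42 and 0.60, which is less than the 1.06 to 1.39 with all libraries. Alas2 was then 1.03. Without SAP library 2 alone, the globins had values from 0.89 to 1.08. Exact permutation tests of FPKM (n = 4 against n = 4) gave p from 0.08571 for Hba-a3 to 1.0 for Slc4a1, where the smallest possible is 0.02857.

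The comparison of the JZL184 group with the control group puts both SAP and the inhibitor against the control ileum. It shares its libraries with the other comparisons. None of the 8 genes tested was a DEG, while edgeR called 2.16% of 15916 genes. DESeq2 called 8.04% of 23630 genes and none of the 9. The largest value was that of Alas2, with a log2 fold change of 1.76 (SE 0.87, edgeR adjusted p = 0.237). Hbb had 1.08 (SE 0.60, edgeR adjusted p = 0.284), Hbb-b1 had 1.12 (SE 0.52, edgeR adjusted p = 0.216) and Hba-a1 had 0.86 (SE 0.52, edgeR adjusted p = 0.320). Slc4a1 had −0.01. Of the 8 values, 7 were positive. The median of the 8 was 0.88, and that of all genes tested was 0.08. Normalised counts did not overlap for 38.3% of all genes and for 0 of the 8.

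The number of DEGs among the 9 genes differed between tools and designs once the control libraries were counted separately. With all 3 control libraries as separate samples, edgeR called 18.1% of all genes and none of the erythroid genes. DESeq2 with separate control libraries called 14.7% of all genes and 3 erythroid genes, Hbb (log2 fold change 1.34, adjusted p = 0.0372), Hbb-b1 (1.34, adjusted p = 0.0197) and Alas2 (1.96, adjusted p = 0.0222). With the replicate number as a block and separate control libraries, edgeR called 9.65% of all genes with 2 erythroid genes, and 8.06% with 4 after gene length offsets were added. The low pair of control libraries enters these fits as 2 samples. Without control library 3, the values were 2.06 for Hbb and 1.45 for Hba-a1, and without control libraries 1 and 2 Hba-a3 had −0.20. Exact permutation tests (n = 4 against n = 2) gave p from 0.4 to 1.0.

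**Figure D4:**
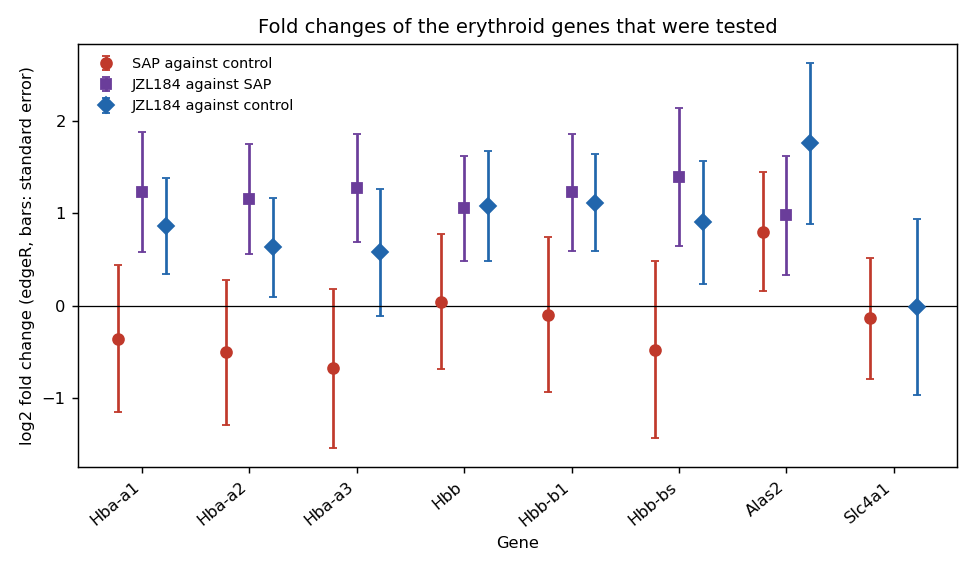
log2 fold change of the genes that passed the filter on low counts in the 3 comparisons, with standard errors of edgeR's fit as bars and a line at 0. Slc4a1 was not tested between the JZL184 and SAP groups, and Ahsp was not tested in any comparison. The 6 globin genes lie between 1.06 and 1.39 for JZL184 against SAP and between −0.67 and 0.05 for SAP against control.

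The globins were correlated across libraries. Over the 10 samples, log2 values of each globin gene had a Pearson r of 0.956 (Hba-a3) to 0.998 (Hba-a1) with the sum of all 6, of which each is a part. The same r was 0.505 for Alas2, 0.538 for Ahsp and 0.221 for Slc4a1. Among 11488 genes that averaged 100 reads or more, the genes most like the globin sum were Yeats4 (r = 0.965), Atp6v1h (r = 0.955), Rnaseh2b (r = 0.937), Slc44a2 (r = 0.925) and Tcf21 (r = 0.924). LOC691392, LOC108348229, Commd3, Polg2 and Otulinl followed, with r down to 0.911. In all, 18 genes had r above 0.9, and the 95th percentile of all genes was 0.772. These values are descriptions over samples that share depth and group, and they changed without the 2 samples farthest from the median, SAP libraries 1 and 2. Without them, r was 0.903 for Yeats4, 0.861 for Atp6v1h, 0.759 for Rnaseh2b, 0.694 for Slc44a2, 0.865 for Tcf21 and 0.674 for LOC691392.

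Several genes that define erythroid precursors were close to 0. Gata1, the master factor of erythroid cells, was listed at 0 to 0.11 FPKM. Klf1, which drives adult beta globin, had 0.08 to 0.26 FPKM. Epor, the erythropoietin receptor, stayed at or below 0.31 FPKM. Of 10 erythroid transcription factors, edgeR tested 7 for SAP against control and 6 in the other comparisons, and called none. Some of the list are used by many cell types and were well above 0, with 17.8 to 35.1 FPKM of Ldb1 and 2.21 to 6.25 FPKM of Lmo2, both partners in GATA complexes. Their log2 fold changes for JZL184 against SAP were 0.47 and 0.43. Nfe2, which activates globin genes, had 0.06 to 0.57 FPKM, and the control libraries were at or below 0.08 FPKM. The embryonic globin Hbe1 was at 0 in 10 of 11 libraries.

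The heme synthesis pathway is used by all cells. Of its 13 genes, none was called in any comparison by edgeR. Their median log2 fold change was −0.47 for SAP against control, 0.12 for JZL184 against SAP and −0.61 for JZL184 against control. Fech, which places iron into the porphyrin, had 5.77, 6.02 and 6.42 FPKM in the control group, 9.28, 10.2, 5.49 and 4.78 FPKM in the SAP group, and 3.59, 2.77, 2.69 and 3.53 FPKM in the JZL184 group. All JZL184 libraries were below all others, where normalised counts did not overlap for 38.3% of all genes against control and 11.8% against SAP. Fech had a log2 fold change of −1.003 against control (SE 0.27, edgeR adjusted p = 0.0775) and −1.04 against SAP (SE 0.28, edgeR adjusted p = 0.107). DESeq2 called both, with adjusted p of 0.0419 and 0.0192. Without SAP libraries 1 and 2, the value against SAP was −0.65 (SE 0.26, edgeR adjusted p = 0.265). Uros, an earlier enzyme of the pathway, had −1.23 for JZL184 against control (SE 0.39, edgeR adjusted p = 0.104).

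Of 15 genes of the erythrocyte membrane and skeleton that were found, edgeR tested 8 between the JZL184 and control groups and called Kcnn4. In this comparison it called 2.16% of all genes. Kcnn4, a calcium-activated potassium channel that epithelia also use, had 50.0, 50.4 and 41.2 FPKM in the control group, 16.2, 17.1, 21.97 and 26.1 FPKM in the SAP group, and 19.0, 11.6, 16.9 and 8.88 FPKM in the JZL184 group. It fell by 1.76 on the log2 scale (SE 0.31, edgeR adjusted p = 0.0357). The groups did not overlap for Kcnn4, where normalised counts did not overlap for 38.3% of all genes. Against SAP its value was −0.41 (SE 0.30, edgeR adjusted p = 0.432). Dmtn, a protein of the membrane skeleton, had −1.78 for JZL184 against control (SE 0.54, edgeR adjusted p = 0.0968), and Sptb, the erythroid spectrin, had −1.41 for JZL184 against SAP (SE 0.55, edgeR adjusted p = 0.191). DESeq2 called Dmtn lower, and without SAP libraries 1 and 2 the value of Sptb was −0.40.

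Of 15 genes of reticulocytes and erythroid enzymes, edgeR tested 14 and called none. Prdx2, an abundant peroxidase of erythrocytes, had 94.8 to 125 FPKM in the control group. It had 52.5 to 92.7 FPKM in the SAP group and 41.9 to 58.0 FPKM in the JZL184 group. Its log2 fold change for JZL184 against control was −1.11 (SE 0.27, edgeR adjusted p = 0.0656), and DESeq2 called it. In that comparison DESeq2 called 2 genes of the list lower and 1 higher, beside 8.04% of all genes. The higher one was Trim10 (log2 fold change 2.64, SE 0.76, edgeR adjusted p = 0.0894), with at most 0.43 FPKM. Car1 and Car2, carbonic anhydrases of erythrocytes and also of large bowel epithelium, stood out in single libraries. Car1 had 478 FPKM in JZL184 library 3 and 24.5 FPKM in JZL184 library 2, and at most 0.79 FPKM in the other 9 libraries. Car2 had 127 FPKM in JZL184 library 3 and at most 7.31 FPKM elsewhere. Fabp6, the bile acid binding protein of ileal enterocytes, was lowest in that library, with 79.9 FPKM, against 20506 to 21819 FPKM in the control group. It was next lowest in JZL184 library 1, with 410 FPKM, where Car1 had 0.33 FPKM. JZL184 library 3 also had the highest globin sum, and the part of these differences in the globin values was not tested. Without it, the log2 fold changes of JZL184 against SAP had a median of 0.93 over the 7 genes tested.

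Genes of iron supply included 1 DEG. Of 9 genes of erythropoietin signalling and iron uptake, edgeR tested 7 for JZL184 against control and called Epas1, beside 2.16% of all genes. Epas1 encodes a hypoxia-inducible factor that turns on erythropoietin. It had 5.60, 5.80 and 6.22 FPKM in the control group, 13.5, 13.4, 9.87 and 6.75 FPKM in the SAP group, and 13.9, 18.4, 28.4 and 21.4 FPKM in the JZL184 group. It rose by 1.75 in the JZL184 group against the control group (SE 0.35, edgeR adjusted p = 0.0468). Erfe, the hormone erythroferrone of erythroblasts, had 0.06, 0.12 and 0.10 FPKM in the control group, 0.16, 0.08, 0.05 and 0.10 FPKM in the SAP group, and 0.41, 0.34, 0.68 and 0.40 FPKM in the JZL184 group. Every JZL184 library exceeded every other library at these low levels. For JZL184, normalised counts did not overlap for 38.3% of all genes against control and 11.8% against SAP. The edgeR test of Erfe did not pass (log2 fold change 2.34 against SAP, SE 0.43, adjusted p = 0.0801, and 2.19 against control, SE 0.52, adjusted p = 0.0631), while DESeq2 called both. Ireb2, an iron-sensing RNA-binding protein, had 1.005 against control (SE 0.32, edgeR adjusted p = 0.107). Tfrc, the transferrin receptor, had 20.3 and 19.6 FPKM in SAP libraries 1 and 2 and at most 7.33 FPKM in all others. Its log2 fold change for JZL184 against SAP was −1.19 (SE 0.47, edgeR adjusted p = 0.194), and −0.06 without SAP libraries 1 and 2.

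Genes that clear free hemoglobin and heme included 2 DEGs. Of the 14 that were found, edgeR tested 13 for JZL184 against control and called Hp and Cd163, beside 2.16% of all genes. Hp, or haptoglobin, which binds free hemoglobin, had 0.34, 0.46 and 0.50 FPKM in the control group, 4.23, 0.61, 5.57 and 2.66 FPKM in the SAP group, and 10.5, 31.5, 6.38 and 6.06 FPKM in the JZL184 group. The FPKM of the 3 groups did not overlap, and the share of all genes for which this was so was not computed. Normalised counts did not overlap for 38.3% of all genes for JZL184 against control. The share was 23.2% for SAP against control and 11.8% for JZL184 against SAP. Hp rose by 4.96 (SE 0.95, edgeR adjusted p = 0.0436) in the JZL184 group against the control group, and its value was 2.70 for SAP against control (SE 0.87, edgeR adjusted p = 0.459) and 2.28 for JZL184 against SAP (SE 0.76, edgeR adjusted p = 0.151). DESeq2 called Hp in both, with adjusted p of 0.0377 and 0.0234. Without SAP libraries 1 and 2, where edgeR called 0.482% of 15362 genes for SAP against control, Hp was one of them (log2 fold change 3.11, SE 0.45, edgeR adjusted p = 0.0146).

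Cd163, the macrophage receptor for haptoglobin bound to hemoglobin, had 0.69, 0.60 and 0.77 FPKM in the control group, 5.83, 13.1, 4.23 and 2.83 FPKM in the SAP group, and 2.65, 7.43, 4.57 and 7.66 FPKM in the JZL184 group. The control libraries were below all others, where normalised counts did not overlap for 38.3% of all genes against JZL184 and 23.2% against SAP. Cd163 rose by 2.99 in the JZL184 group against the control group (SE 0.55, edgeR adjusted p = 0.0398). For SAP against control it had the same value of 2.99 with a wider error (SE 0.63, edgeR adjusted p = 0.403), and DESeq2 called it. Without SAP libraries 1 and 2, which leaves n = 2 in each group, edgeR called Cd163 (2.25, SE 0.29, adjusted p = 0.00920), beside 0.482% of all genes. Hmox1, which breaks down heme, had 6.87, 6.80 and 5.10 FPKM in the control group, 15.9, 8.10, 16.7 and 8.87 FPKM in the SAP group, and 10.4, 38.5, 81.6 and 35.9 FPKM in the JZL184 group. Its log2 fold change was 2.75 against control (SE 0.74, edgeR adjusted p = 0.0775) and 1.91 against SAP (SE 0.54, edgeR adjusted p = 0.118), and DESeq2 called both. Blvra, the next enzyme of heme breakdown, had −1.18 for JZL184 against control (SE 0.27, edgeR adjusted p = 0.0609), and DESeq2 called it. Hpx, the heme carrier hemopexin, stayed at or below 0.42 FPKM.

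**Figure D5:**
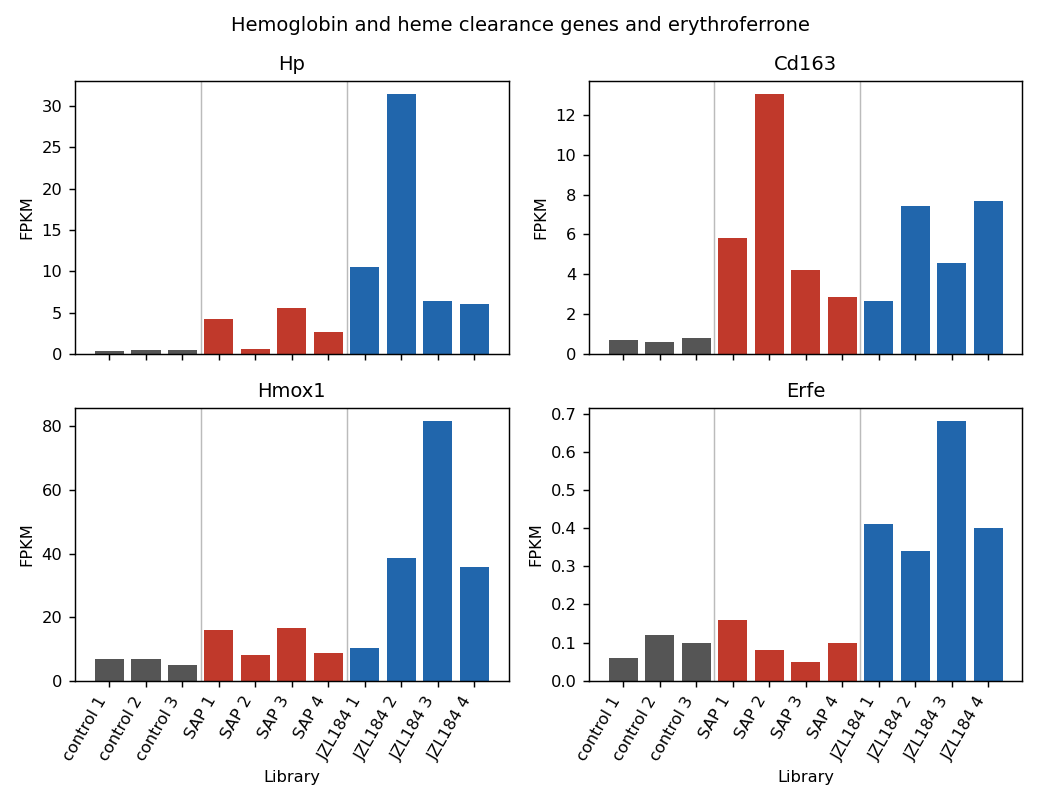
FPKM of Hp, Cd163, Hmox1 and Erfe in each of the 11 libraries, with each axis starting at 0 and bars coloured by group (grey control, red SAP, blue JZL184). Hp is at or below 0.50 FPKM in the control libraries and reaches 31.5 FPKM in JZL184 library 2, and Erfe is highest in the 4 JZL184 libraries.

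Mb, the globin of muscle, had another order of libraries than the blood globins. It had 1.02, 0.96 and 0.89 FPKM in the control group, 0.25, 0.22, 0.35 and 0.45 FPKM in the SAP group, and 0.64, 2.39, 3.34 and 1.60 FPKM in the JZL184 group. All SAP libraries were below all others, where normalised counts did not overlap for 23.2% of all genes against control and 11.8% against JZL184. The log2 fold change was 2.78 for JZL184 against SAP (SE 0.58, edgeR adjusted p = 0.0851), which DESeq2 called, and −1.71 for SAP against control (SE 0.50, edgeR adjusted p = 0.459). Adgb, androglobin, had 1.17 for JZL184 against SAP (SE 0.32, edgeR adjusted p = 0.115), which DESeq2 called as well, and Cygb, cytoglobin, had 0.43 (SE 0.35, edgeR adjusted p = 0.475). Of the 6 other globins found, edgeR tested 3 or 4 in a comparison and called none.

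Markers of other cells were set beside the globins, and their part in the globin values was not tested. Of 10 endothelial genes, none was called by edgeR. Their summed FPKM was 71.2 to 77.8 in the control group, 61.8 to 106 in the SAP group and 46.9 to 103 in the JZL184 group. Pecam1, the adhesion molecule CD31, had 8.00 to 8.81 FPKM in the control group and 11.8 to 18.6 FPKM in the JZL184 group (log2 fold change 0.76, SE 0.27, edgeR adjusted p = 0.128). Esam had 1.25 (SE 0.39, edgeR adjusted p = 0.101) and Tie1, another vessel gene, had −1.21 (SE 0.32, edgeR adjusted p = 0.0780) in the same comparison, and DESeq2 called both.

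Platelet genes summed to 8.42 to 29.4 FPKM in the control group, 15.7 to 35.7 FPKM in the SAP group and 13.9 to 35.2 FPKM in the JZL184 group, and none of the 4 that edgeR tested was called, of 9 found. Itga2b, the platelet integrin, had 1.64 for JZL184 against SAP (SE 0.39, edgeR adjusted p = 0.0909), Itgb3, its partner, had −2.89 (SE 0.86, edgeR adjusted p = 0.128), and Gp6, the collagen receptor of platelets, had −0.01. DESeq2 called Itga2b higher (adjusted p = 0.00309) and Itgb3 lower (adjusted p = 0.00818). Itgb3 had 2.33 and 3.10 FPKM in SAP libraries 1 and 2 against 0.73 and 0.38 FPKM in the others of the group, and without those libraries its log2 fold change was −1.50 (SE 0.91, edgeR adjusted p = 0.427). Neutrophil genes summed to 13.9 to 14.5 FPKM in the control group, 22.6 to 92.8 FPKM in the SAP group and 25.1 to 277 FPKM in the JZL184 group, so that the control group was below both others. S100a8 and S100a9, the calprotectin subunits, were at most 0.63 and 0.72 FPKM in the control group and at least 3.56 and 2.49 FPKM in the others. Cxcr2, a chemokine receptor of neutrophils, was at 0 in the control group and at most 0.39 FPKM in the others. Mpo, of the same list, went the other way, with 0.33 to 0.56 FPKM in the control group and at most 0.30 FPKM elsewhere. Its log2 fold changes against control were −1.36 for SAP and −1.38 for JZL184 (edgeR adjusted p of 0.459 and 0.146). Positive values were held by 8 of 10 tested genes for SAP against control and 8 of 9 for JZL184 against control. Of 12 neutrophil genes, edgeR tested 9 or 10 in a comparison and called none, with the smallest adjusted p at 0.0594. DESeq2 called 4 for SAP against control and 3 for JZL184 against control, beside 0.893% and 8.04% of all genes. Without SAP libraries 1 and 2, edgeR called S100a8 and S100a9 for SAP against control (adjusted p of 0.0424 and 0.0159), beside 0.482% of all genes.

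Enterocyte genes summed to 32437 to 35109 FPKM in the control group, 8113 to 21632 FPKM in the SAP group and 4381 to 19137 FPKM in the JZL184 group, and none of the 10 was called by edgeR. Vil1, the microvillus protein villin, had −1.58 for JZL184 against control (SE 0.47, edgeR adjusted p = 0.0940) and was called by DESeq2, Fabp6 had −2.30 (SE 1.36, edgeR adjusted p = 0.312), and Apoa4, an apolipoprotein, had 0.57 (SE 1.26, edgeR adjusted p = 0.798). Of 11 genes of other ileal tissue, Jchain of plasma cells and Col1a1 of fibroblasts were called lower for JZL184 against control. In that comparison edgeR called 2.16% of all genes. Jchain fell by 2.14 (SE 0.37, edgeR adjusted p = 0.0350) and Col1a1 fell by 2.49 (SE 0.50, edgeR adjusted p = 0.0462). Col3a1, another collagen, had −0.88 (SE 0.39, edgeR adjusted p = 0.195).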

How the data were processed

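Stranded mRNA libraries were made from ileum RNA (11 libraries). The authors aligned reads to mRatBN7.2 with HISAT2 and deposited, for each gene, the count of uniquely aligned reads without normalization. The authors also deposited FPKM, normalized for gene length and library size and given with 2 decimals. Sources used here do not name the counting tool or the annotation. Between 26341299 and 33847135 reads per library lay on genes. Counting error was small for the main globins, where the spread between libraries exceeded it, and large for Ahsp and Slc4a1.

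Groups follow the treatment labels. The reads of control libraries 1 and 2 were summed, and their FPKM averaged, because their counts differed by little more than sampling noise. Genes were compared in R 4.3.3 with edgeR 4.0.16 (quasi-likelihood test, TMM factors, default filter with minimum count 10), fitted on the whole table with Benjamini-Hochberg adjustment. A DEG had an adjusted p under 0.05 and more than 2-fold or less than 0.5-fold expression. The standard error was taken from the fold change and its F statistic. Two-sided exact permutation tests used the FPKM of single genes (scipy 1.17.1). Alternatives were DESeq2 1.42.0, limma 3.58.1 on log2 FPKM with a pseudocount of 1 or 0.1, other normalization and filters, all groups in 1 fit, separate control libraries, the replicate number as a block, gene length offsets (span 0.3), and libraries left out. Fits of the list genes without SAP libraries 1 and 2 were chosen after seeing the data. Scripts were tested on simulated data. With the dispersion of these data, edgeR recovered 0% of genes with a true 4-fold change for SAP against control. The share was 42.6% for JZL184 against SAP and 19.9% for JZL184 against control. A gene that was not called may therefore still have changed.

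The erythroid genes and the gene lists were chosen with earlier results of these data known. The 3 genes of each list with the smallest p in any comparison are named, with a set of defining genes and the 10 genes most like the globins. Promoters came from RefSeq on GRCr8, another build than that of the reads, and no coordinates were carried between them. Symbols of the lists that were not found were not analysed here. Some genes that this rule names are not reported here. No label says that libraries of a group came from separate rats, so p-values measure the spread between these samples, which may be technical.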

Additional observations from a re-analysis of the deposited data

Results flagged for a closer look

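Each group of 4 libraries was screened for a single library far from the others, over 24 sets of values of the erythroid genes. Ahsp stood out in 2 of them, where chance would flag about 1 in 20. In the SAP group, library 3 had 0.24 FPKM of Ahsp, and the other libraries had 0.16 or 0.17. In the JZL184 group, library 3 had 0.71 FPKM, and the other libraries had at most 0.18. These values rest on 7 and 21 reads.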

How the results depend on the processing

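No erythroid gene was a DEG for SAP against control or for JZL184 against SAP under any alternative that was run. For JZL184 against control, 0 of 8 genes were called in the main analysis, beside 2.16% of all genes. DESeq2 with separate control libraries (chosen after seeing the data) called 3 of 9, beside 14.7% of all genes. The replicate block gave 2 of 8, beside 9.65%, and the block with gene length offsets gave 4 of 8, beside 8.06%. The replicate numbers did not pair the samples, with correlations of the deviations between −0.44 and 0.12, and the block changed no call in the other comparisons. The exact permutation test called 0 genes, also with separate control libraries and with each library left out. The groups were too small to pass with 2 control samples, with separate control libraries or with a library left out. Those outcomes therefore say nothing about stability. Only JZL184 against SAP with all libraries could have passed, with a smallest possible p of 0.02857 in this test. The lowest p found there was 0.08571. For JZL184 against SAP, the 6 globins and Alas2 were positive under every alternative that was run. Slc4a1, which did not pass the filter in the main analysis, had values between −0.04 and 0.59 where it was tested with edgeR.

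For SAP against control, signs turned often. The block gave −0.01 for Hbb. Gene length offsets gave 0.11 for Hbb-b1, and with the block 0.18 for Hbb-b1 and 0.23 for Hba-a3. Separate control libraries gave 0.14 for Hbb-b1 in edgeR and in DESeq2, and 0.02 for Slc4a1 in DESeq2. Without SAP libraries 1 and 2, Hbb-b1 had 0.69, Hbb-bs 0.40, Hba-a1 0.40, Hba-a2 0.24 and Hba-a3 0.02. Without control libraries 1 and 2, Hbb had −0.53. Leaving out each library gave ranges of −0.39 to 1.03 for Hbb, −0.68 to 0.76 for Hbb-b1, −0.93 to 0.45 for Hbb-bs, −0.77 to 0.24 for Hba-a1, −0.86 to 0.52 for Hba-a2, −1.03 to 0.99 for Hba-a3 and −0.24 to 0.53 for Slc4a1. For JZL184 against control, Slc4a1 ranged from −0.39 to 0.65, Hba-a3 had −0.20 without control libraries 1 and 2, and Slc4a1 had 0.15 with separate control libraries in both tools. The cause was not tested.

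The number of DEGs over all genes moved as well. For JZL184 against control it was 343 with edgeR, 1899 with DESeq2, 929 without the filter, 2800 with separate control libraries and 1488 with the block, and 0 to 1867 with libraries left out. For JZL184 against SAP it was 0 with edgeR, 1283 with DESeq2, 207 with all groups in 1 fit and up to 655 with a library left out. For SAP against control it was 0 with edgeR, 208 with DESeq2, 33 and 1434 with separate control libraries in edgeR and DESeq2, and 74 without SAP libraries 1 and 2. Few reads limit Ahsp and Slc4a1, and the low pair of control libraries with 1 further sample limits both comparisons with control.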
